A study of Homo sapiens with 8 samples.

Results

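Netrins, slits and their receptors were followed through 10 genes: the secreted netrins NTN1 and NTN4, the membrane-anchored netrins NTNG1 and NTNG2, the slits SLIT1 and SLIT2, the slit receptors ROBO1 and ROBO2, and the netrin receptors DCC and UNC5C. Each gene was taken by its symbol from the rows annotated to exactly 1 gene, and all 10 had a single such row among the 18377 genes measured. The cells were SHSY5Y, a neuroblastoma line of neural crest origin, kept as 2 stable, virally transduced, puromycin-selected lines named V71 and PLKO after their sample titles. Both lines were grown on laminin, either differentiated by retinoic acid and then BDNF without serum (DF) or in growth medium with serum (NDF), with 2 biological replicates in each of the 4 groups, on 8 Affymetrix Human Gene 1.0 ST arrays. The treatment label gives control for V71 and IKBKAP shRNA for PLKO, whereas in the methods pLKO.1-Puro is the control vector. The targeted gene is not reported here and was not used to check these labels. Differences are therefore written as V71 minus PLKO without calling either line the depleted one. Each line is a single stable line, so the shRNA and other differences between the 2 lines cannot be told apart.

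Netrins and slits are extracellular cues that steer axons and migrating neural crest cells. Netrin-1 attracts growth cones through DCC and repels them through receptors of the UNC5 family. The netrin-G proteins, in contrast, are tethered to the axon surface by a lipid anchor and bind the adhesion molecules LRRC4C and LRRC4 rather than DCC. Slits are large secreted proteins that repel axons through the ROBO receptors. Because the netrin and slit rows are measured by different probes, a level is compared between groups and never between genes.

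Values are those deposited, on a log2 scale, so that a difference of 1 is a doubling. To be called, a gene needed a fold of 1.5 or more and an adjusted p below 0.05 from limma, which steadies each gene's variance with that of all rows (moderation) and was corrected by Benjamini-Hochberg for all rows tested. In the differentiated cells NTNG1 was higher and NTNG2 and SLIT1 were lower in V71. These are 3 of the 10 genes, against 3.06% of all genes called, 1.81% higher and 1.26% lower. In growth medium NTNG1 and ROBO2 were higher in V71 and no member was lower, 2 of the 10 against 2.15% of all genes, 0.615% of them higher. Upon differentiation SLIT1 and UNC5C rose and ROBO2 fell in V71, 3 of the 10 against 7.53% of all genes, 3.98% higher and 3.55% lower. In PLKO NTNG2 and SLIT1 rose and NTNG1 and SLIT2 fell, 4 of the 10 against 7.04%, 2.88% higher and 4.16% lower. The change upon differentiation differed between the lines (interaction, the change in V71 minus that in PLKO) for NTNG2 and ROBO2, both with a negative difference. This is 2 of the 10 against 1.39% of all genes, 1.09% positive and 0.305% negative. Altogether 6 of the 10 genes were called in at least 1 comparison, a total for which no share of all genes was computed. NTN1, NTN4, ROBO1 and DCC were called in none. The median difference between the lines over the 10 genes was 0.10 in DF and 0.00 in NDF, against 0.01 in each over all genes.

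**Figure D1:**
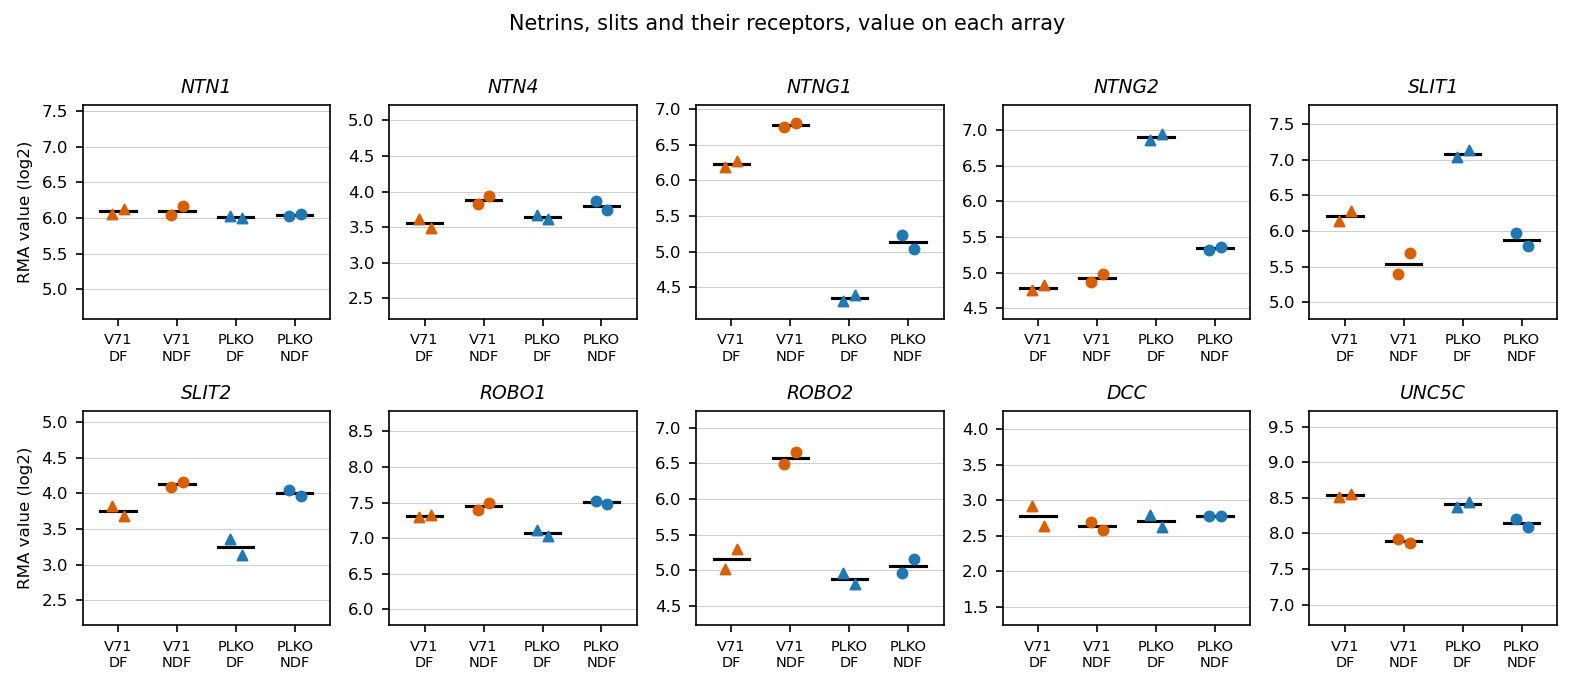
Deposited value (log2, y axis) of the 10 genes on each of the 8 arrays, with triangles for DF, circles for NDF, orange for V71, blue for PLKO and a black bar for the mean of 2 arrays; every panel spans at least 3 log2 units. NTNG2 is raised on both PLKO DF arrays (6.86 and 6.95) and ROBO2 on both V71 NDF arrays (6.49 and 6.66), while the values of NTN1 span 0.09 between group means.

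Cell identity and treatment were looked at through marker genes. Of 13 analysed noradrenergic markers the transcription factors PHOX2A, HAND2, GATA2, GATA3 and ISL1 lay between 7.34 and 9.77 on every array. HAND1 lay between 6.36 and 7.45. TH, the rate-limiting enzyme of catecholamine synthesis, lay between 4.21 and 4.595, and SLC18A2 was under the 25th percentile in V71 DF. In NDF HAND1, CHGA and CHGB were higher in V71, and in DF CHGB was higher and DBH lower. Upon differentiation 2 of the 13 rose and 5 fell in V71, while in PLKO 2 rose and 1 fell. Of 6 analysed retinoic acid response genes 4 were higher in DF in each line. Between the lines in DF, CRABP2 was higher in V71 (log2 difference 1.45) and DHRS3 lower (-1.17). Both were also called in the interaction, and in NDF RARB was lower in V71 (-0.72). All 14 genes of G2 and mitosis were lower in DF in each line. Their summed signal on the linear scale was 1246 to 1293 in V71 DF and 709.8 to 799 in PLKO DF, and 10 of the 14 were higher in V71 than in PLKO in DF. Of 20 markers of mesenchymal, substrate-adherent (S-type) neuroblastoma cells, V71 had 9 at a lower level in NDF and 4 in DF. Their summed signal was 909.5 to 940.2 in V71 DF and 1382 to 1422 in PLKO DF, and 895 to 932 in V71 NDF and 1653 to 1662 in PLKO NDF. Such a linear sum weighs bright genes most. PDGFRA had means of 6.26 in V71 DF and 9.07 in PLKO DF, and 6.47 in V71 NDF and 9.02 in PLKO NDF. The median log2 difference between the lines over the 20 markers was -0.008 in DF and -0.21 in NDF. Upon differentiation 6 of these 20 fell in PLKO, and in V71 1 rose and 1 fell, with 5 called in the interaction. ANXA1 lay under the 25th percentile of the array in every group, and none of 5 Schwann cell markers was called in any comparison. The noradrenergic, S-type, retinoic acid and cell cycle markers thus moved with differentiation and, in part, with the line, and their part in the differences of the 10 genes was not tested. In such bulk samples fewer cells of a type and less RNA per cell cannot be told apart.

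NTNG1, which encodes netrin-G1, was the member that parted the lines in both conditions. Its values were 6.19 and 6.26 in V71 DF and 4.31 and 4.39 in PLKO DF. In NDF they were 6.75 and 6.80 in V71 and 5.23 and 5.03 in PLKO. The groups did not overlap, and both V71 groups lay above both PLKO groups. The log2 difference between V71 and PLKO was 1.88 in DF (standard error 0.09, adjusted p = 8.45e-06), a fold of 3.67, and 1.64 in NDF (standard error 0.09, adjusted p = 1.98e-05), a fold of 3.12. NTNG1 was lower in DF than in NDF on all arrays of each line. Its change upon differentiation was -0.78 in PLKO (standard error 0.09, adjusted p = 0.000457), which was called, and -0.55 in V71 (standard error 0.09, adjusted p = 0.00408), a fold of 1.46, which stayed under the fold threshold. These changes are not shown to differ, since the interaction was 0.24 with a 95% interval of -0.06 to 0.54 (adjusted p = 0.681).

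NTNG2 encodes netrin-G2, the other lipid-anchored netrin, and it ran opposite to NTNG1 between the differentiated lines. It had values of 4.75 and 4.82 in V71 DF, against 6.86 and 6.95 in PLKO DF. In NDF the arrays read 4.87 and 4.99 in V71 and 5.31 and 5.37 in PLKO. PLKO DF thus stood alone as the high group, and the other 3 groups lay within 4.75 to 5.37. The log2 difference between V71 and PLKO in DF was -2.12 (standard error 0.09, adjusted p = 4.39e-06), a fold of 4.34, the largest difference of the 10 genes in any of the comparisons of 2 groups. In NDF it was -0.41 (standard error 0.09, adjusted p = 0.0398), a fold of 1.33, which is under the fold threshold. Upon differentiation NTNG2 rose by 1.57 in PLKO (standard error 0.09, adjusted p = 3.36e-06), a fold of 2.96, while in V71 its change was -0.14 (standard error 0.09, adjusted p = 0.38). The difference between these changes was itself called, with an interaction of -1.71 (standard error 0.12, adjusted p = 0.000206), although without moderation of the variance its adjusted p was 0.0637.

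Promoter sequences were taken from RefSeq on GRCh38.p14, each reaching from 250 bases before to 50 bases after an annotated transcription start, for the called genes, to show the sequence at which their transcription begins. The table holds 13 starts of 8 of the 10 genes, and NTN1 and NTNG2 are named only. Since the cells were differentiated with retinoic acid and BDNF, 2 short motifs were searched on both strands: AGGTCA, the core bound by retinoic acid receptors, and TGACG, the core bound by CREB, a factor activated by BDNF signaling. They share no letters in any of these promoters. AGGTCA was found in 1 of the 13 member promoters, against 13.8% of all 35116 promoters of the table, and TGACG in 4 of 13, against 24.6%. Capitals mark a match on either strand, and a match is a string of letters and not a shown site of binding. NTNG1 on chromosome 1 has 3 annotated starts, and only its second, with TGACG on the opposite strand at position 17, counted from 1 at the start, holds a match (chr1:107140789-107141088, plus strand).
NTNG1 second start: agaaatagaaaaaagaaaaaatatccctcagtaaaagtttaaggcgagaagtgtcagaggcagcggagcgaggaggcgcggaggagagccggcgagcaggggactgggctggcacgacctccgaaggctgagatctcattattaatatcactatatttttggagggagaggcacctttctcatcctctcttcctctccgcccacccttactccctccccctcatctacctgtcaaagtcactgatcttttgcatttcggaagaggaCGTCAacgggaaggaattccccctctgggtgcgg
The array row covers the gene and does not tell the starts apart.

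The secreted netrins were called in no comparison. NTN1, netrin-1 itself, had values of 6.06 and 6.13 in V71 DF, 6.03 and 6.17 in V71 NDF, 6.02 and 5.997 in PLKO DF, and 6.03 and 6.05 in PLKO NDF. The arrays of the 2 lines overlapped in NDF but not in DF, where PLKO lay lower, and its log2 difference between the lines was 0.08 in DF (95% interval -0.11 to 0.27) and 0.06 in NDF (95% interval -0.13 to 0.25). NTN4, a laminin-related netrin of basement membranes, had values of 3.61 and 3.49 in V71 DF, 3.83 and 3.93 in V71 NDF, 3.67 and 3.61 in PLKO DF, and 3.87 and 3.73 in PLKO NDF. It was lower in DF than in NDF on all arrays of each line. Its change was -0.33 in V71 (standard error 0.09, adjusted p = 0.0458), a fold of 1.25, and -0.16 in PLKO (standard error 0.09, adjusted p = 0.353), and neither reached the fold threshold.

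**Figure D2:**
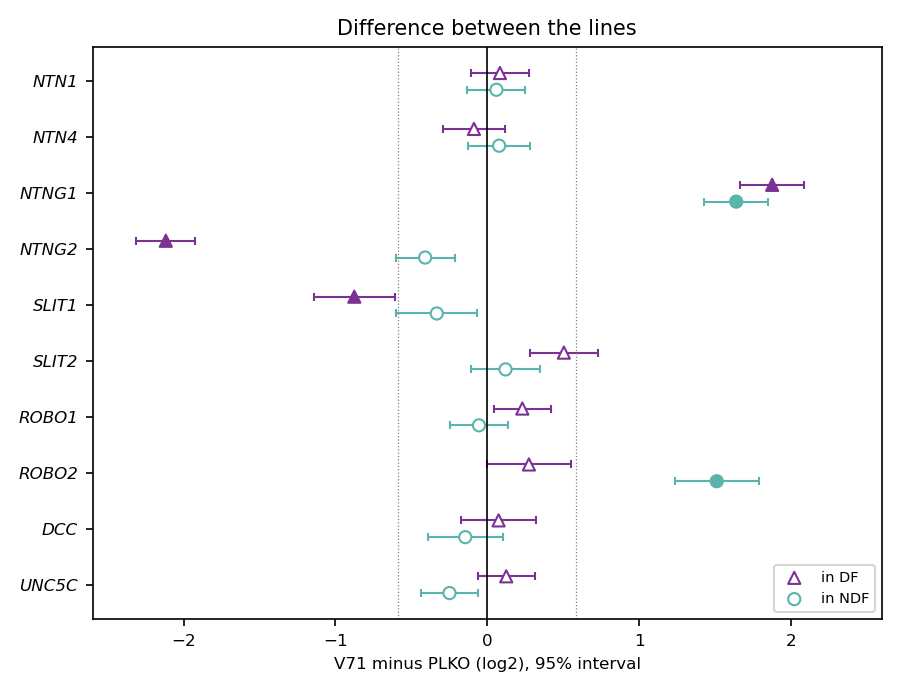
V71 minus PLKO (log2, x axis) for the 10 genes, with triangles for DF, circles for NDF, bars for the 95% interval from limma, filled symbols for called differences and dotted lines at a fold of 1.5. NTNG1 is to the right in both conditions (1.88 and 1.64), NTNG2 is far to the left in DF (-2.12), and ROBO2 is far to the right in NDF (1.51).

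SLIT1 encodes a slit expressed mainly in the nervous system and was the only one of the 10 genes called as higher upon differentiation in both lines. It had values of 6.13 and 6.29 in V71 DF and 5.39 and 5.69 in V71 NDF. In PLKO the values were 7.03 and 7.14 in DF and 5.96 and 5.78 in NDF. In each line the DF arrays lay above the NDF arrays, and the highest group was PLKO DF. The rise was 0.67 in V71 (standard error 0.12, adjusted p = 0.00473), a fold of 1.59, and 1.21 in PLKO (standard error 0.12, adjusted p = 0.000116), a fold of 2.32. The rise in V71 was 0.52 (adjusted p = 0.0383) without V71 NDF replicate 2, under the fold threshold, and had an adjusted p of 0.0856 without moderation. The 2 rises are not shown to differ after adjustment, with an interaction of -0.54 (95% interval -0.92 to -0.17, adjusted p = 0.274). Here as elsewhere the 95% interval, unlike the adjusted p, is not adjusted for the number of rows tested. Between the lines in DF, SLIT1 was lower in V71, with a log2 difference of -0.88 (standard error 0.12, adjusted p = 0.00279), a fold of 1.84, which without moderation had an adjusted p of 0.108. In NDF the difference was -0.33 (standard error 0.12, adjusted p = 0.25).

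SLIT2 encodes the slit best known for repelling axons through ROBO1 and ROBO2, and it moved opposite to SLIT1. Its values were 3.82 and 3.68 in V71 DF and 4.09 and 4.17 in V71 NDF. In PLKO they were 3.36 and 3.14 in DF and 4.05 and 3.97 in NDF. All 4 DF arrays lay below all 4 NDF arrays, and the lowest group was PLKO DF. The fall upon differentiation was called in PLKO, at -0.76 (standard error 0.10, adjusted p = 0.000831), a fold of 1.70. In V71 the change was -0.38 (standard error 0.10, adjusted p = 0.0362), a fold of 1.30, under the fold threshold, and the changes of the 2 lines are not shown to differ (interaction 0.38, 95% interval 0.06 to 0.70, adjusted p = 0.411). V71 minus PLKO was 0.50 in DF (standard error 0.10, adjusted p = 0.0205), a fold of 1.42. It passed the fold threshold, at 0.61, without PLKO DF replicate 1. The PLKO DF mean of 3.25 stood close above 3.04, the 25th percentile of those arrays.

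SLIT1 lies on chromosome 10 and SLIT2 on chromosome 4, and each has 1 start in the table. The promoter of SLIT1 (chr10:97185910-97186209, minus strand) holds TGACG at position -237 from the start, and that of SLIT2 (chr4:20251655-20251954, plus strand) holds neither motif. They are shown together because these slits moved in opposite directions.
SLIT1: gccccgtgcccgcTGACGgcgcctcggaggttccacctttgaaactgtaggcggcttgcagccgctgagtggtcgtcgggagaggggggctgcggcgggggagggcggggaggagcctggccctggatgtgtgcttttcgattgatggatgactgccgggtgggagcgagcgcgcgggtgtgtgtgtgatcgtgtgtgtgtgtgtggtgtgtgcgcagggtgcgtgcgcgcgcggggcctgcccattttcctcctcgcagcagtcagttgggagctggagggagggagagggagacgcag
SLIT2: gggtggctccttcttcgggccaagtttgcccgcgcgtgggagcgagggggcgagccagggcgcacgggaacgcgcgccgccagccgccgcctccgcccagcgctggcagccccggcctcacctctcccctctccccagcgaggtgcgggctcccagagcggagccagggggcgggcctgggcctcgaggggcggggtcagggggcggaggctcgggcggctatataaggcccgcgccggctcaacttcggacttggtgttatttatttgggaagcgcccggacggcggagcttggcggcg
The GC content of these windows was 68% for SLIT1 and 74.3% for SLIT2, with 27 and 36 CG dinucleotides.

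SLIT2 and the third slit, SLIT3, also host the 2 copies of miR-218, a microRNA known to target ROBO1. The rows of these hairpins were looked at after their values had been seen. Both loci give the same mature 5p strand, shown with its seed (bases 2 to 8) in capitals.
hsa-miR-218-5p: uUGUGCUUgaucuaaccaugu
The row of MIR218-1, inside SLIT2 on chromosome 4, read 2.48 and 2.50 in V71 DF, 2.64 and 2.76 in V71 NDF, 2.64 and 2.95 in PLKO DF, and 2.62 and 2.82 in PLKO NDF. All group means lie under the 25th percentile of their arrays, and no difference is read from them. The row of MIR218-2, inside SLIT3 on chromosome 5, read 6.58 and 6.43 in V71 DF, 6.17 and 6.10 in V71 NDF, 6.49 and 6.67 in PLKO DF, and 6.76 and 6.63 in PLKO NDF. V71 NDF was the low group there, with a log2 difference of -0.56 between V71 and PLKO in NDF (standard error 0.10, adjusted p = 0.0173), just under the fold threshold. SLIT3 itself had 8.40 and 8.62 in V71 NDF and 8.69 and 8.53 in PLKO NDF, a log2 difference of -0.10 (standard error 0.10, adjusted p = 0.768). These arrays were labelled from total RNA, and these rows do not give the level of the mature strand itself.

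ROBO2, a receptor for slits on commissural and retinal axons, stood apart in undifferentiated V71 cells. Its values were 5.02 and 5.30 in V71 DF and 6.49 and 6.66 in V71 NDF, against 4.96 and 4.80 in PLKO DF and 4.97 and 5.16 in PLKO NDF. V71 NDF did not overlap with any other group, and the remaining 3 groups lay within 4.80 to 5.30. In NDF the log2 difference of V71 and PLKO was 1.51 (standard error 0.12, adjusted p = 0.000146), a fold of 2.85, with an adjusted p of 0.0687 without moderation. In DF it was 0.27 (standard error 0.12, adjusted p = 0.299). Upon differentiation ROBO2 fell in V71 by 1.42 on the log2 scale (standard error 0.12, adjusted p = 6.32e-05), a fold of 2.67, and its change in PLKO was -0.18 (standard error 0.12, adjusted p = 0.456). The interaction was called, at -1.24 (standard error 0.17, adjusted p = 0.00941). That call was lost without PLKO DF replicate 1 (adjusted p = 0.0502) or PLKO NDF replicate 2 (adjusted p = 0.0565), and without moderation its adjusted p was 0.28.

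ROBO1, its neighbour on chromosome 3 and likewise a slit receptor, had a narrower range. It had 7.29 and 7.33 in V71 DF, 7.40 and 7.50 in V71 NDF, 7.12 and 7.04 in PLKO DF, and 7.53 and 7.48 in PLKO NDF. In each line its DF arrays lay below its NDF arrays. Its change upon differentiation was -0.14 in V71 (standard error 0.08, adjusted p = 0.392) and -0.42 in PLKO (standard error 0.08, adjusted p = 0.00938), the second a fold of 1.34 and under the fold threshold. Between the lines it differed by 0.23 in DF (adjusted p = 0.19) and by -0.05 in NDF (adjusted p = 0.875).

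The annotated gene of ROBO2 on chromosome 3 begins at 75906675, upstream of both starts in the promoter set, so a start there is not shown. These 2 starts differ in composition, and both are shown because the row does not resolve which start is used in V71 NDF. The first (chr3:76310630-76310929, plus strand) has a GC content of 46.7% and 7 CG dinucleotides, and the second (chr3:77039849-77040148, plus strand) 72.3% and 31. Neither motif occurs in them.
ROBO2 first start: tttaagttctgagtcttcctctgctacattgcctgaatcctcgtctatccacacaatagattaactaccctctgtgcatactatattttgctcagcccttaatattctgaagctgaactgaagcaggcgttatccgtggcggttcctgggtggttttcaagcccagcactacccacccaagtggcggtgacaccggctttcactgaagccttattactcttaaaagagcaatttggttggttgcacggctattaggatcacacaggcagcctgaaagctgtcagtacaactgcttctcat
ROBO2 second start: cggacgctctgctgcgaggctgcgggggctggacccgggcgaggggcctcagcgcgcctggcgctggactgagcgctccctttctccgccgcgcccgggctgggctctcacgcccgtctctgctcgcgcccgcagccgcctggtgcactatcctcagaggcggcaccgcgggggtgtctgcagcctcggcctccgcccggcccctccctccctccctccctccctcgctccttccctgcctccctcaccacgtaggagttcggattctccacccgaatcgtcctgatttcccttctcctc

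UNC5C, a netrin receptor that mediates repulsion, was called upon differentiation in V71. It had 8.51 and 8.56 in V71 DF and 7.92 and 7.87 in V71 NDF. In PLKO the values were 8.38 and 8.44 in DF and 8.20 and 8.09 in NDF. All 4 DF arrays lay above all 4 NDF arrays. It rose by 0.64 in V71 (standard error 0.08, adjusted p = 0.000833), a fold of 1.56. In PLKO the change was 0.26 (standard error 0.08, adjusted p = 0.0742), and the changes of the 2 lines are not shown to differ (interaction 0.37, 95% interval 0.11 to 0.64, adjusted p = 0.294). V71 minus PLKO was 0.12 in DF (adjusted p = 0.539) and -0.25 in NDF (adjusted p = 0.221). Its promoter on chromosome 4 (chr4:95548924-95549223, minus strand) holds TGACG on the opposite strand at position -114. The promoter of SLIT1, the other member called as higher in V71 DF than in V71 NDF, is shown above. TGACG also occurs in promoters of NTNG1, which was lower in DF, and of NTN4, which was called in no comparison. Whether the motif bears on these changes was not tested.
UNC5C: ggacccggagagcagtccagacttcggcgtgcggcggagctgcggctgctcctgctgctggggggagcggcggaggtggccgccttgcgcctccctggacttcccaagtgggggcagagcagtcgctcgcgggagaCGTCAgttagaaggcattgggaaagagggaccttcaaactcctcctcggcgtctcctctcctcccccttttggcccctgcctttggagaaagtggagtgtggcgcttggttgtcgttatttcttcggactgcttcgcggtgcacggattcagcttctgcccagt

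DCC, the receptor through which netrin-1 attracts axons, was dim throughout. It read 2.92 and 2.64 in V71 DF, 2.69 and 2.58 in V71 NDF, 2.79 and 2.62 in PLKO DF, and 2.78 and 2.78 in PLKO NDF. Every group mean lay under the 25th percentile of its arrays, which was 3.02 to 3.04, and no difference is read from it.

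**Figure D3:**
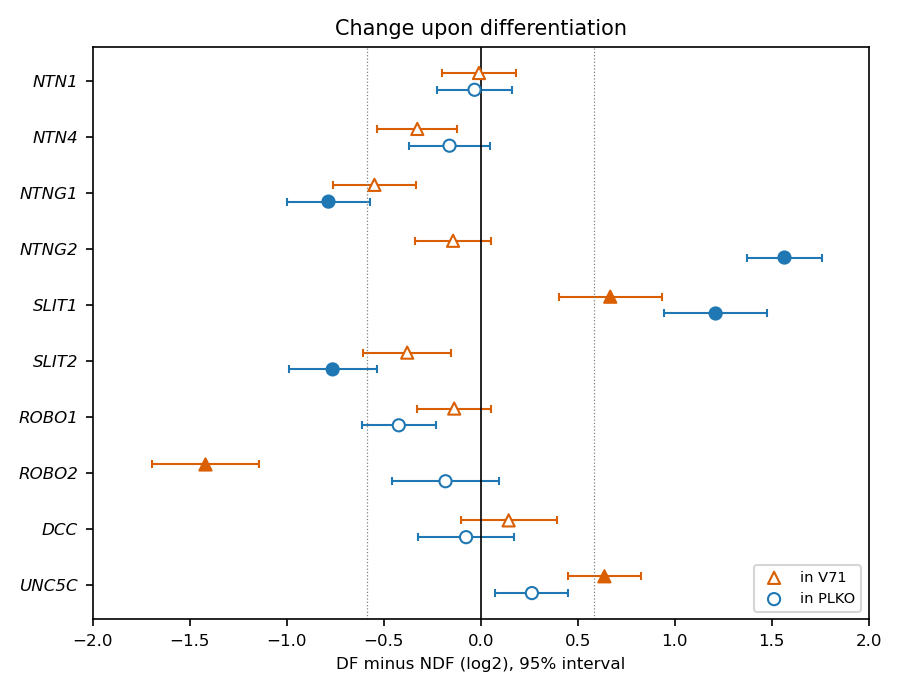
DF minus NDF (log2, x axis) for the 10 genes, with orange triangles for V71, blue circles for PLKO, bars for the 95% interval from limma, filled symbols for called changes and dotted lines at a fold of 1.5. NTNG2 lies at 1.57 in PLKO and -0.14 in V71, ROBO2 at -1.42 in V71 and -0.18 in PLKO, and SLIT1 to the right in both (0.67 and 1.21).

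The rest of the pathway was followed through 52 analysed genes: 8 other ligands, 14 other receptors and binding partners, and 30 intracellular partners. At these thresholds none was higher in V71 in either condition, against 0.615% of all genes in NDF and 1.81% in DF. None rose upon differentiation in either line, against 3.98% of all genes in V71 and 2.88% in PLKO. UNC5D, MCAM and MYO10 were lower in V71 in NDF, 3 of 52 against 1.54% of all genes lower there. None of the 52 was called between the lines in DF, against 3.06% of all genes. With 52 genes, counts of none are near these shares. Upon differentiation 6 fell in V71, against 3.55% of all genes, and 6 in PLKO, against 4.16%. The median change over the 52 was -0.04 in V71 and -0.05 in PLKO, beside 0.00 and 0.01 over all genes. The partners of the netrin-Gs, LRRC4 and LRRC4C, are among the 52 and were called in no comparison. LRRC4 had a change of -0.36 in V71 (adjusted p = 0.0748) and of -0.48 in PLKO (adjusted p = 0.024) upon differentiation, under the fold threshold. Its difference between the lines was -0.01 in DF and -0.13 in NDF. LRRC4C was dim in all groups.

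UNC5D, a further repulsive netrin receptor, had 4.97 and 5.10 in V71 NDF and 5.83 and 5.92 in PLKO NDF. This is a log2 difference of -0.84 (standard error 0.11, adjusted p = 0.00314). It fell upon differentiation in both lines, by 0.89 in V71 and by 1.31 in PLKO (adjusted p = 0.000594 and 4.21e-05), so that it ran opposite to UNC5C, which lay higher in DF. UNC5B, a relative with a role in vessels, fell in V71 by 0.73 (standard error 0.10, adjusted p = 0.00129) and had a change of -0.28 in PLKO (adjusted p = 0.129). MCAM, an adhesion molecule that can bind netrin-1, had 4.49 and 4.78 in V71 NDF and 5.61 and 5.57 in PLKO NDF, a log2 difference of -0.96 (standard error 0.11, adjusted p = 0.00106). MYO10, a motor that carries DCC into filopodia, had 4.18 and 4.29 in V71 NDF and 5.11 and 5.24 in PLKO NDF, a difference of -0.94 (standard error 0.11, adjusted p = 0.00182). The calls of UNC5D, MCAM and MYO10 between the lines were lost without moderation, with adjusted p of 0.128, 0.0898 and 0.115.

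SRGAP1, the GTPase-activating protein that links ROBO receptors to CDC42, fell upon differentiation by 1.10 in V71 (standard error 0.09, adjusted p = 4.68e-05) and by 1.38 in PLKO (standard error 0.09, adjusted p = 9.41e-06). Its values were 5.34 and 5.33 in V71 DF and 6.37 and 6.51 in V71 NDF, with 4.80 and 4.91 in PLKO DF and 6.30 and 6.18 in PLKO NDF. DAPK1, a death-associated kinase that acts downstream of UNC5 receptors, fell by 0.67 in V71 (adjusted p = 0.00062) and by 1.31 in PLKO (adjusted p = 8.19e-06). The interaction of DAPK1 was 0.64 (standard error 0.12, adjusted p = 0.0434). That call was lost without any 1 of the 8 arrays, with adjusted p of 0.0609 to 0.223, with arrays centred on their medians (adjusted p = 0.0691), with a replicate block (adjusted p = 0.0899) and without moderation (adjusted p = 0.158). MYO10 fell in PLKO by 1.27 (adjusted p = 6.18e-05), against a change of -0.44 in V71 (adjusted p = 0.0301), and its interaction of 0.83 (standard error 0.16, adjusted p = 0.0523) was not called. PLXNA1, a plexin that binds a fragment of slit, fell by 1.05 in V71 and by 0.68 in PLKO (adjusted p = 5e-04 and 0.00617). FLRT3, a ligand of UNC5 receptors and a partner of ROBO1, fell by 0.63 in V71 and by 0.68 in PLKO (adjusted p = 0.00562 and 0.00363). Without moderation the calls of FLRT3 in V71 and PLKO and of PLXNA1 in PLKO were lost, with adjusted p of 0.0865, 0.0749 and 0.103. Leaving out V71 NDF replicate 2 took the fall of FLRT3 in V71 under the fold threshold, and leaving out PLKO NDF replicate 2 that of PLXNA1 in PLKO.

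**Figure D4:**
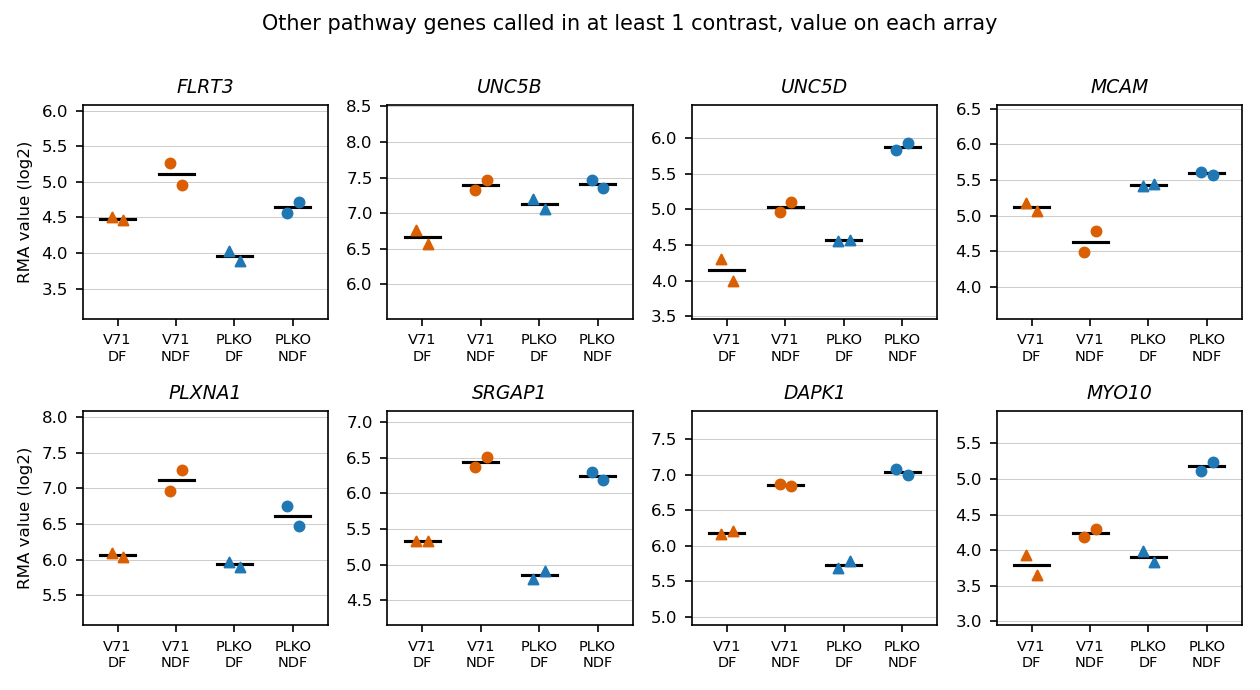
Deposited value (log2, y axis) on each of the 8 arrays of the 8 other pathway genes called in at least 1 comparison, drawn as in the plot of the 10 genes by array. UNC5D, SRGAP1 and DAPK1 lie lower in DF than in NDF in each line, while MCAM and MYO10 lie lower in V71 NDF than in PLKO NDF.

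Genes whose values ran most like those of a member were sought among the 978 other genes whose group means spanned at least 1 on the log2 scale. The measure was Pearson's correlation over the 8 arrays, which share 2 lines and 2 conditions, and it is a description only. NTNG1 ran most like ARHGEF28 (r = 0.987), ABRACL (r = 0.978) and CHRNA3 (r = 0.977), and NTNG2 like CORIN (r = 0.982), RYR2 (r = 0.968) and AGPS (r = 0.959). SLIT1 was closest to PCDHB12 (r = 0.993), ABTB3 (r = 0.99) and HOXD10 (r = 0.987), and ROBO2 to CNTNAP4 (r = 0.984), ENC1 (r = 0.977) and INSM2 (r = 0.973). The other 6 members spanned less than 1 and were not compared in this way.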

How the data were processed

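The deposited table holds the authors' RMA values from Partek 6.5, in log2 units. The build and annotation behind the rows are not given in the sources used here. Values were used as deposited. Of 28869 rows, 19310 carry exactly 1 gene in the supplied annotation. The row with the highest mean stood for each of the 685 genes with several. The 4 group means were fitted in limma 3.58.1 (R 4.3.3) with variances moderated by eBayes (4 residual and 5.428 prior degrees of freedom), and p was adjusted by Benjamini-Hochberg over all rows, 2-sided. A group mean below its arrays' mean 25th percentile was called dim. Tested on simulated data of 28869 rows for V71 minus PLKO in NDF, the fit recovered 40 of 50 rows changed at a fold of 1.8 and 47 of 50 at 2. The number of arrays limits the precision. The p rests only on the spread between replicates within groups of 2, pooled over the 4 groups and moderated by that of all rows. Same-numbered V71 and PLKO arrays deviated together in DF (r = 0.243) but not in NDF (r = -0.201), and no block was used. Named genes were the members, every pathway gene called, and the 3 genes most like a member that spans at least 1. The members, lists and motifs were chosen with earlier results of these data known. Some genes listed, among them DAG1 and PAK1, are not analysed here. Alternatives changed the moderation, normalization, row filter, adjustment, fold threshold, array weights, row choice, replicate block or left out 1 array.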

Additional observations from a re-analysis of the deposited data

Results flagged for a closer look

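By a test of the difference, the change upon differentiation was called as differing between the lines for 2 of the 10 genes. Of the 52 other pathway genes 1 was called, against 1.39% of all genes. NTNG2 had an interaction of -1.71, from a change of -0.14 in V71 and 1.57 in PLKO. ROBO2 had an interaction of -1.24, from a change of -1.42 in V71 and -0.18 in PLKO. DAPK1 had an interaction of 0.64, from a change of -0.67 in V71 and -1.31 in PLKO. None of these calls held without moderation, with adjusted p of 0.0637 for NTNG2, 0.28 for ROBO2 and 0.158 for DAPK1. The calls of ROBO2 and DAPK1 also depended on single arrays, as given above. Groups of 2 arrays are too small to look for single arrays that stand apart.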

How the results depend on the processing

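Without moderation of the variance 1 of the 10 genes (NTNG1) was called between the lines in NDF and 0 in the interaction, and of the other pathway genes 0 and 0. At a fold of at least 2, 1 member was called upon differentiation in V71 (ROBO2) and 2 in PLKO (NTNG2 and SLIT1), and of the other pathway genes 0 between the lines in NDF, 2 upon differentiation in V71 and 0 in the interaction. Without a fold threshold 6 members passed upon differentiation in V71, and of the other pathway genes 6 passed between the lines in DF, 12 upon differentiation in V71 and 11 in PLKO. For the interaction, 2 other pathway genes were called under some settings, DAPK1 and MYO10 each time. This held with a trended and robust prior, after quantile normalization, without rows below the 33rd percentile or with p adjusted over rows with 1 symbol. No share of all genes was computed for the alternative settings of this section. The counts thus show only how the calls depend on the setting.

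Leaving out 1 array gave 1 to 2 members and 0 to 1 other pathway genes called in the interaction. SLIT2 passed in DF between the lines, at 0.61, without PLKO DF replicate 1, and NTNG1 upon differentiation in V71, at -0.59, without V71 DF replicate 2. The rise of SLIT1 in V71 stayed under the fold threshold, at 0.52, without V71 NDF replicate 2, and so did the falls of FLRT3 in V71, at -0.48 without that array, and of PLXNA1 in PLKO, at -0.54 without PLKO NDF replicate 2. The signs that turned were those of small, uncalled differences of NTN1 and of DCC, which was dim in all groups. Over the arrays left out, NTN1 ranged from -0.0067 to 0.13 in NDF, from -0.076 to 0.059 upon differentiation in V71 and from -0.044 to 0.090 in the interaction, where it stood at -0.013 after quantile normalization. DCC ranged from -0.062 to 0.21 in DF and from -0.16 to 0.011 upon differentiation in PLKO.

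With a replicate block, which rests on a shared number only, 2 members were called in NDF, 3 in DF and 2 in the interaction, as without it, and of the other pathway genes 3, 0 and 1, where MYO10 replaced DAPK1. Pairing the NDF arrays crosswise, chosen after seeing the data, gave the same counts. DF and NDF share only the number 2, so DF minus NDF has no such fit. The cause of these changes was not tested.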
